A study of Mus musculus with 24 samples.

Results

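The comparison set the 8 melanomas with the highest level of Dusp6 against the 8 with the lowest, out of 24 melanomas of TN mice, with the genotypes pooled. In these mice the Tyr::CreERT2 transgene confines Cre activity to melanocytes, and 4-hydroxytamoxifen painted on the skin at 20 mM on postnatal days 1 and 2 removes a stop cassette so that mutant Nras is expressed from its own locus. Every tumour was of the C57BL/6 background and carried 2 mutant Nras alleles and no wild-type one, in 4 genotypes of 6 tumours each, named for the amino acid at the mutated codon: arginine in TN61R/R, lysine in TN61K/K, leucine in TN61L/L and histidine in TN61H/H. The K, L and H lines descend from founders edited from the R line, and tumours arose spontaneously and were collected once they met exclusion criteria. Mice of the paper's cohorts also received a single dose of ultraviolet B after the tamoxifen, apart from mock-treated ones. The labels do not say which applied to each tumour here. Total RNA depleted of ribosomal RNA was sequenced from frozen tumour pieces, so melanoma cells, stroma, immune cells and adjoining skin were measured together, and in such bulk samples fewer cells of a type and less RNA per cell cannot be told apart.

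The members were chosen by a measured value, the Dusp6 count as a share of its library's total (counts per M counted reads, CPM). The Dusp6-high side consisted of 4 TN61R/R and 2 TN61K/K tumours with 1 each of TN61L/L and TN61H/H. The Dusp6-low side consisted of 4 TN61L/L and 2 TN61H/H tumours with 1 each of TN61R/R and TN61K/K. The sides are therefore not balanced for genotype, and they are not groups of the study: a p-value below is that of an association with the Dusp6 level among these tumours. Only the other genes were tested.

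DUSP6 is a dual-specificity phosphatase that removes the activating phosphates from ERK, the last kinase of the RAS, RAF, MEK and ERK cascade. ERK signalling induces its transcription, so the phosphatase forms a negative feedback loop, and its mRNA is widely read as a gauge of ERK output. Sprouty and SPRED proteins, some other dual-specificity phosphatases, ETS factors of the PEA3 group (Etv1, Etv4 and Etv5) and cyclin D1 are induced by the same cascade. ETS factors bind DNA at a core of GGAA, which is why the promoters of Dusp6 and of the called genes Ier3 and Elk3 are shown here.

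The 250 bases before the start of each gene are from RefSeq (build GRCm38.p6), read 5′ to 3′ on the gene's strand, with each GGAA or its reverse complement TTCC in capitals, together with a C before it or a G after it where that makes CGGAA or TTCCG. They lie at chr10:99262981-99263230 (plus strand) for Dusp6, chr17:35821463-35821712 (plus strand) for Ier3 and chr10:93311160-93311409 (minus strand) for Elk3.
Dusp6: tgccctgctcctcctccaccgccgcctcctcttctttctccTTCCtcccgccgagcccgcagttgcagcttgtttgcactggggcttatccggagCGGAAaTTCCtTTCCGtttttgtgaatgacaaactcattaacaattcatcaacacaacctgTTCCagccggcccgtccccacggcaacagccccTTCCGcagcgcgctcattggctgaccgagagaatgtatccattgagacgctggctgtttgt
Ier3: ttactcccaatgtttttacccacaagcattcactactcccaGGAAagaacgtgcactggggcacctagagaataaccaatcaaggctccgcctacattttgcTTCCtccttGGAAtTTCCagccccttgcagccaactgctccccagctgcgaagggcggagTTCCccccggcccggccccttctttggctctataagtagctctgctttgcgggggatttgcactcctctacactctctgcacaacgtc
Elk3: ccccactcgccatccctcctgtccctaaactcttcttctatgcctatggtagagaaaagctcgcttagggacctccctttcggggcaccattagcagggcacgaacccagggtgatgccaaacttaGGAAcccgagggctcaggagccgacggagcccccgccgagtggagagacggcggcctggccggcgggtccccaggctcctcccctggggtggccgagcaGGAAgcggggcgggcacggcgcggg
The Dusp6 window held 6 matches to GGAA, the Ier3 window 5 and the Elk3 window 2. Of these, 3 in the Dusp6 window and 0 in the Ier3 and Elk3 windows were CGGAA, letters chosen after the windows had been read. On both strands, 93.4% of 32851 promoter windows of the same length held GGAA, 25.2% held CGGAA, 6.75% held the AP-1 letters TGANTCA and 1.55% held the CRE letters TGACGTCA. None of the 3 windows held the last 2. A match is a description of the letters and not a binding site.

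Dusp6 itself spanned a continuous range. In the Dusp6-high melanomas it lay between 242.5 CPM (TN61K/K replicate 5) and 398.2 CPM (TN61K/K replicate 6). In the Dusp6-low melanomas it lay between 113.8 CPM (TN61L/L replicate 5) and 211.1 CPM (TN61R/R replicate 1). No gap separated the sides from the 8 libraries between them: the nearest library under the Dusp6-high side had 242.0 CPM, against 242.5 CPM just inside, and the nearest above the Dusp6-low side had 212.7 CPM, against 211.1 CPM just inside. By genotype, the median Dusp6 level of 6 tumours was highest in TN61R/R at 286.8 CPM, followed by TN61K/K at 231.0 CPM, TN61H/H at 228.6 CPM and TN61L/L at 193.7 CPM. These values are the choice itself and were not tested between the sides.

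**Figure D1:**
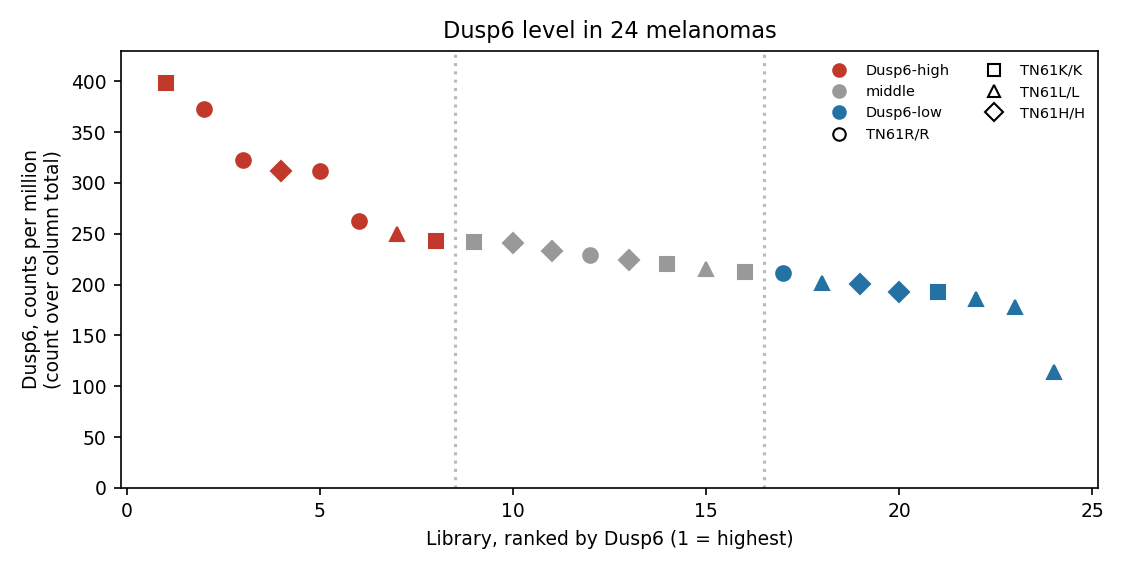
Dusp6 level (vertical axis, CPM of the column total) of each of the 24 libraries, ranked along the horizontal axis from highest to lowest. Red points are the 8 Dusp6-high libraries (242.5 to 398.2 CPM), grey the 8 between, blue the 8 Dusp6-low libraries (113.8 to 211.1 CPM), and the point shape gives the genotype. The dotted lines mark the limits of the sides, where neighbouring libraries nearly touch (242.5 beside 242.0 CPM, and 212.7 beside 211.1 CPM).

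Libraries held between 31.9 and 43.8 M counted reads, with medians of 36.4 M in Dusp6-high and 34.8 M in Dusp6-low melanomas. Levels of Dusp6 are CPM of the column total, except where TMM-scaled Dusp6 is named. Those of every other gene or list are CPM on library sizes scaled by TMM, which corrects for differences in composition between libraries. Sox10, the neural crest factor of melanocytes, was detected on both sides, at 253.8 to 658.4 CPM in Dusp6-high and 113.8 to 507.5 CPM in Dusp6-low melanomas. Other melanocyte genes differed in direction. Mitf had a log2 fold change of -0.74, as given below. The 11 melanocyte lineage regulators had a median of -0.21, with 3 positive. Their summed level had a median of 1427 CPM (range 1146 to 1962) in Dusp6-high and 1135 CPM (range 950.3 to 2297) in Dusp6-low melanomas. The 13 pigment genes tested had a median of -2.36, with 1 positive. Sox10 alone is therefore no measure of melanocyte content. Keratinocyte genes, a sign of adjoining skin, varied widely. The summed level of 16 keratinocyte genes had a median of 347 CPM (range 8.31 to 10510) in Dusp6-high and 4756 CPM (range 26.0 to 7326) in Dusp6-low melanomas. The 6 libraries whose column name has no separator after its letter code, a possible batch by label style alone, fell as 3 in Dusp6-high and 2 in Dusp6-low melanomas. Each tumour name also begins with a letter code, K, L, H or P, which is the letter of the mutant residue in TN61K/K, TN61L/L and TN61H/H tumours, whereas the TN61R/R tumours carry K, L or P, 2 of each. The 2 tumours with code P were both Dusp6-high. TN61H/H replicate 4, a Dusp6-high tumour, and TN61H/H replicate 5, which lies between the sides, carry the same animal number, so they may be from 1 mouse, and they were fitted as separate libraries.

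Among 16929 genes tested besides Dusp6, 176 (1.04%) passed the edgeR quasi-likelihood test after Benjamini-Hochberg adjustment at 0.05, 132 (0.78%) higher and 44 (0.26%) lower in Dusp6-high melanomas. At an unadjusted p under 0.05 there were 3255 genes (19.2%). The values of the 2 sides did not overlap for 23 genes higher (0.136%) and 6 lower (0.0354%) in Dusp6-high melanomas. For 164 of the 176 called genes the mean of the 8 libraries between the sides lay between the means of the sides. The called genes were selected for a gap between the sides, which by itself favours a mean inside it. The share over all tested genes was not taken, so this count is no test of a graded relation to Dusp6. The median log2 fold change over all tested genes was -0.01. The number of calls turned on a few libraries and on the width of the sides: without the 3 libraries at the ends of the Dusp6 range 4 genes were called, with 10 libraries a side edgeR called 0 (2997 at an unadjusted p under 0.05, and 570 by DESeq2), and with 6 a side it called 1061. Leaving out single libraries gave between 30 calls (without TN61L/L replicate 5) and 908 (without TN61K/K replicate 5), and with the mean level of the keratinocyte genes as a covariate 7 genes were called. With genotype as a covariate 238 were called, 143 higher and 95 lower, with the letter code as a covariate 68, and in the libraries with a separator in the column name alone 86. Without TN61H/H replicate 5 there were 162 calls. Of 38 called genes named below, 12 were no longer called with genotype as a covariate: Mtap, Mnat1, Ccnd1, Hbegf, Mmp14, Apaf1, Cdk4, Tns1, Klf15, B3galt2, Fam13a and Chadl.

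The genes that an active ERK cascade induces mostly had positive fold changes in Dusp6-high melanomas, yet few passed the test. Of 17 tested genes in a list of 18 ERK-driven transcription factors and targets, 3 were called higher (Ier3, Phlda1 and Ccnd1; 0.78% of all tested genes were) and 0 lower (0.26% were), 14 had a positive log2 fold change (48.4% of all tested genes did), and the median log2 fold change was 0.91, beside -0.01 over all tested genes. The list's median stayed between 0.59 and 1.05 under every alternative run, whereas the number called higher lay between 0 (10 or 12 libraries a side) and 8 (6 a side).

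Ier3, an immediate early gene with roles in survival and in sustaining ERK phosphorylation, had the smallest p of any gene tested. Its level was 25.4 CPM at the lowest, 42.8 at the median and 86.1 at the highest in Dusp6-high melanomas, against 7.82, 14.2 and 18.6 CPM in Dusp6-low melanomas. The sides did not overlap, and the lowest values of all were in TN61L/L tumours. The log2 fold change was 1.81 ± 0.24 (SE, 8 libraries a side, edgeR adjusted p 0.000878), and Ier3 stayed called when any single library was left out, with adjusted p up to 0.00386.

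Phlda1, a PH-like domain protein that limits receptor signalling, had 97.1, 145.7 and 267.1 CPM (lowest, median, highest) in Dusp6-high melanomas, against 37.9, 73.2 and 103.5 CPM in Dusp6-low melanomas. In 6 of 8 Dusp6-high tumours it was above every Dusp6-low tumour, and the log2 fold change was 0.99 ± 0.20 (edgeR adjusted p 0.0180). Ccnd1 encodes cyclin D1, which couples mitogen signals to entry into the cell cycle. It had 1187, 1846 and 2545 CPM in Dusp6-high melanomas, against 631.5, 968.5 and 1362 CPM in Dusp6-low melanomas. Its log2 fold change was 0.92 ± 0.22 with an edgeR adjusted p of 0.0456, and the call held in 4 of the 16 fits that leave out a library, with adjusted p up to 0.0968, and not with genotype as a covariate.

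The PEA3 group did not pass the threshold. Etv5 had 47.2, 60.8 and 189.8 CPM in Dusp6-high melanomas, against 26.6, 38.4 and 57.1 CPM in Dusp6-low melanomas (log2 fold change 0.98 ± 0.25, edgeR adjusted p 0.0510). Etv4 had 6.73, 11.6 and 65.5 CPM in Dusp6-high melanomas, against 3.21, 7.92 and 14.1 CPM in Dusp6-low melanomas (1.45 ± 0.45, edgeR adjusted p 0.0934). The upper end of both genes was formed by the same 2 tumours, TN61R/R replicates 6 and 4, at 65.5 and 57.7 CPM of Etv4, and the next Dusp6-high tumour had 15.3 CPM. Etv1 had a log2 fold change of 0.58 ± 0.28 (edgeR adjusted p 0.256).

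Other targets had wide spreads. Plaur, the receptor of urokinase, had a log2 fold change of 1.08 ± 0.28 (edgeR adjusted p 0.0534). Hmga2, an architectural chromatin protein, had 25.6, 116.2 and 196.6 CPM in Dusp6-high melanomas, against 0.693, 21.5 and 67.3 CPM in Dusp6-low melanomas, and its log2 fold change of 2.171 ± 0.65 did not pass (edgeR adjusted p 0.0833). Fosl1, an AP-1 subunit, was near the floor of detection with medians of 0.831 CPM in Dusp6-high and 0.244 CPM in Dusp6-low melanomas. The immediate early factor Egr1 overlapped widely, with medians of 88.4 CPM in Dusp6-high and 84.6 CPM in Dusp6-low melanomas. The ephrin receptor gene Epha4 was at -1.37 ± 0.53 and also missed the threshold (edgeR adjusted p 0.168). The other negative values in the list were those of Egr3 at -0.33 ± 0.59 and Il17rd at -0.04 ± 0.12.

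**Figure D2:**
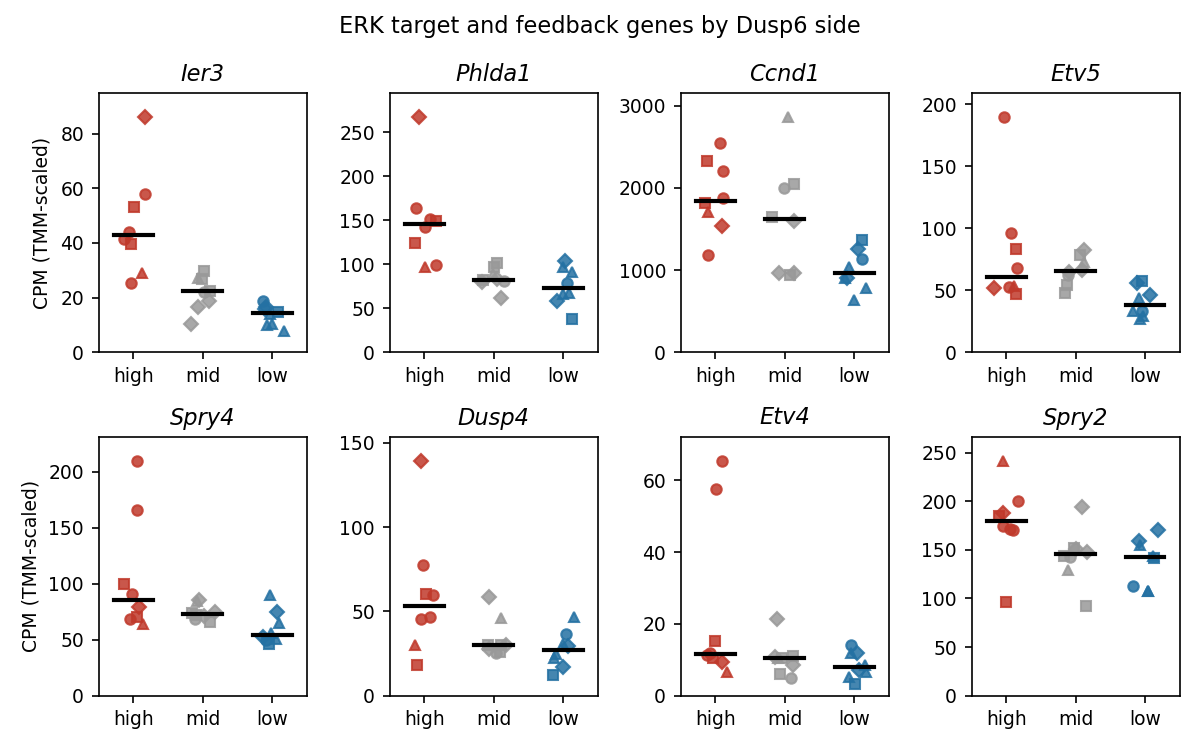
Level of 8 ERK target and feedback genes (vertical axes, CPM on TMM-scaled library sizes, from 0) in the 8 Dusp6-high, 8 middle (mid) and 8 Dusp6-low libraries. Each point is 1 tumour, bars are medians, and genotypes are shown as circles for TN61R/R, squares for TN61K/K, triangles for TN61L/L and diamonds for TN61H/H. Only Ier3 of these 8 has no overlap between the high and low sides, and the 2 highest points of Etv4 and of Spry4 are TN61R/R tumours.

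Of 10 tested feedback inhibitors of the 11 listed, edgeR called 0. Over all tested genes 1.04% were called, so 0 in a list this short is near that share. An unadjusted p under 0.05 in edgeR was found for 5 (19.2% of all tested genes), and DESeq2 called 2 (998 genes in all). A positive log2 fold change was found for 7 (48.4% of all tested genes), and the median was 0.40. Spry4, a Sprouty inhibitor of receptor signalling to RAS, had 63.6, 85.1 and 210.2 CPM in Dusp6-high melanomas, against 45.8, 53.9 and 89.7 CPM in Dusp6-low melanomas (log2 fold change 0.81 ± 0.21, edgeR adjusted p 0.0560). Dusp4, a nuclear phosphatase of ERK, had 18.5, 53.4 and 139.5 CPM in Dusp6-high melanomas, against 12.3, 27.0 and 46.7 CPM in Dusp6-low melanomas (1.12 ± 0.32, edgeR adjusted p 0.0722). Their ranges overlapped, and the highest Spry4 values were again those of TN61R/R replicates 6 and 4.

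Spred2 and Spred3, membrane inhibitors of RAS signalling, had log2 fold changes of 0.42 ± 0.14 and 0.83 ± 0.27 (edgeR adjusted p 0.116 and 0.109). Spry2 was at 0.38 ± 0.15 (edgeR adjusted p 0.181), with 1 Dusp6-high tumour, TN61K/K replicate 5, below every Dusp6-low tumour at 96.0 CPM. Spred1 at 0.09 ± 0.15, Spry1 at -0.04 ± 0.29 and Dusp7, a cytoplasmic ERK phosphatase like DUSP6, at -0.29 ± 0.15 were within 2 SE of 0 (edgeR adjusted p 0.792, 0.958 and 0.295). Dusp5, of the same list, lay between 2.69 CPM (TN61R/R replicate 3) and 9.79 CPM (TN61K/K replicate 5) in Dusp6-high melanomas. In Dusp6-low melanomas it reached higher, from 1.45 CPM (TN61H/H replicate 6) to 16.4 CPM (TN61R/R replicate 1). Dusp9 averaged under 1 CPM. Of 15 other dual-specificity phosphatases, 0 were called (1.04% of all tested genes were) and 1 had an unadjusted p under 0.05 in edgeR (19.2% did). A positive log2 fold change was found for 2 of the 15 (48.4% of all tested genes).

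Of 22 tested RAS, RAF, MEK, ERK and scaffold components of the cascade edgeR called 0 (1.04% of all tested genes were called). At an unadjusted p under 0.05 there were 8 (19.2% of all tested genes). The median log2 fold change of the 22 was 0.03. Nras, the oncogene that drives these tumours, had 101.1, 186.9 and 223.4 CPM in Dusp6-high melanomas, against 78.3, 109.7 and 191.2 CPM in Dusp6-low melanomas. Of the 8 Dusp6-high tumours 3 were above every Dusp6-low tumour, and the log2 fold change of 0.62 ± 0.21 did not pass (edgeR adjusted p 0.121). Hras and Braf were at -0.40 ± 0.19 and -0.38 ± 0.16 (edgeR adjusted p 0.254 and 0.200). Mapk3, which encodes ERK1, was at 0.33 ± 0.11 and Map2k1, which encodes MEK1, at 0.33 ± 0.14, and the RAS GTPase activators Rasa2 and Nf1 were at 0.54 ± 0.17 and 0.43 ± 0.15. None of these 4 passed (edgeR adjusted p 0.0967 to 0.193).

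Upstream of RAS, 1 of 20 ligands of receptor tyrosine kinases was called higher by edgeR, against 0.78% of all tested genes. Of 17 receptors 0 were called in either direction (1.04% of all tested genes were), and 7 had an unadjusted p under 0.05 (19.2% did). The called ligand was Hbegf, an EGF receptor ligand that ERK signalling also induces. It had 29.8, 41.5 and 116.9 CPM in Dusp6-high melanomas, against 13.8, 23.5 and 38.6 CPM in Dusp6-low melanomas, with a log2 fold change of 1.16 ± 0.28 (edgeR adjusted p 0.0455). The call held in 5 of the 16 fits that leave out a library, with adjusted p up to 0.0975, and not with genotype as a covariate. Its receptor gene Egfr was at -0.77 ± 0.27 (edgeR adjusted p 0.127), Mertk at -0.73 ± 0.19 (0.0589), Ret at -1.80 ± 0.62 (0.126) and Axl at 0.57 ± 0.16 (0.0696), so the receptors with the smallest p were of both signs.

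The 12 named genes of smallest p that were higher in Dusp6-high melanomas included Ier3, Elk3 and Cdk17 and had various known roles. Anks1b, a scaffold of synapses, had 30.8, 118.0 and 174.3 CPM in Dusp6-high melanomas, against 6.73, 18.2 and 30.6 CPM in Dusp6-low melanomas (log2 fold change 2.63 ± 0.36, edgeR adjusted p 0.000878). The sides did not overlap but nearly met, at 30.8 CPM in TN61L/L replicate 6 on the Dusp6-high side and 30.6 CPM in TN61R/R replicate 1 on the Dusp6-low side. Astn2, which acts in neuronal migration, had 119.4, 165.5 and 232.4 CPM in Dusp6-high melanomas, against 48.6, 74.4 and 106.4 CPM in Dusp6-low melanomas (1.23 ± 0.19, edgeR adjusted p 0.00247), also without overlap. Nav3, a microtubule-binding neuron navigator, was higher by 2.10 ± 0.37 (edgeR adjusted p 0.00950), although TN61L/L replicate 6 at 11.1 CPM was below every Dusp6-low tumour.

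Elk3 encodes an ETS factor of the ternary complex group that ERK phosphorylates. It had 137.7, 148.9 and 198.1 CPM in Dusp6-high melanomas, against 77.6, 87.1 and 124.5 CPM in Dusp6-low melanomas. Its neighbour on chromosome 10, Cdk17, a cyclin-dependent kinase of the PCTAIRE group, had 92.1, 117.2 and 137.2 CPM in Dusp6-high melanomas, against 59.0, 72.7 and 90.7 CPM in Dusp6-low melanomas. Both were without overlap and narrow in spread, at log2 fold changes of 0.79 ± 0.11 and 0.68 ± 0.10 (edgeR adjusted p 0.000878 and 0.00247).

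The remaining genes of this set were Sh3kbp1, an adaptor of receptor endocytosis, at 1.42 ± 0.23, Pdlim4, an actin-associated PDZ and LIM protein, at 1.28 ± 0.21, Dnaic2, a dynein intermediate chain, at 1.02 ± 0.17, Sfxn3, a mitochondrial carrier, at 0.52 ± 0.09, Rnf128, a ubiquitin ligase, at 1.70 ± 0.29, and Ctxn1, a membrane protein known from the cortex, at 1.05 ± 0.18. Their edgeR adjusted p lay between 0.00594 and 0.00902. Pdlim4, Dnaic2 and Sfxn3 did not overlap between the sides.

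As a description over all 24 libraries, the genes whose level ranked most like that of Dusp6 were Mtap, Cdk17, Elk3, Acsl4, Ier3, Mnat1, Tubb2b and Adamts1, with Spearman correlations between 0.836 and 0.903. Here Dusp6 too was on TMM-scaled library sizes, which order the libraries somewhat differently from the CPM that set the sides. The libraries are those that set the sides, so these correlations and the calls rest on the same data. Mtap, an enzyme of methionine salvage, ranked first with 42.2, 67.4 and 278.4 CPM in Dusp6-high melanomas, against 31.4, 36.3 and 40.4 CPM in Dusp6-low melanomas (log2 fold change 1.52 ± 0.30, edgeR adjusted p 0.0180). Its upper end was TN61R/R replicates 6 and 4 at 278.4 and 179.5 CPM, the tumours that also led Etv4, Etv5 and Spry4. With genotype as a covariate Mtap was not called. Acsl4, which activates arachidonic acid, was at 1.04 ± 0.19, Tubb2b, a beta-tubulin, at 1.01 ± 0.20, Adamts1, a secreted protease, at 1.12 ± 0.22 and Mnat1, a subunit of the CDK-activating kinase, at 0.40 ± 0.10. All were called higher (edgeR adjusted p 0.0104 to 0.0483), although the call of Mnat1 held in 4 of the 16 fits that leave out a library and not with genotype as a covariate.

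**Figure D3:**
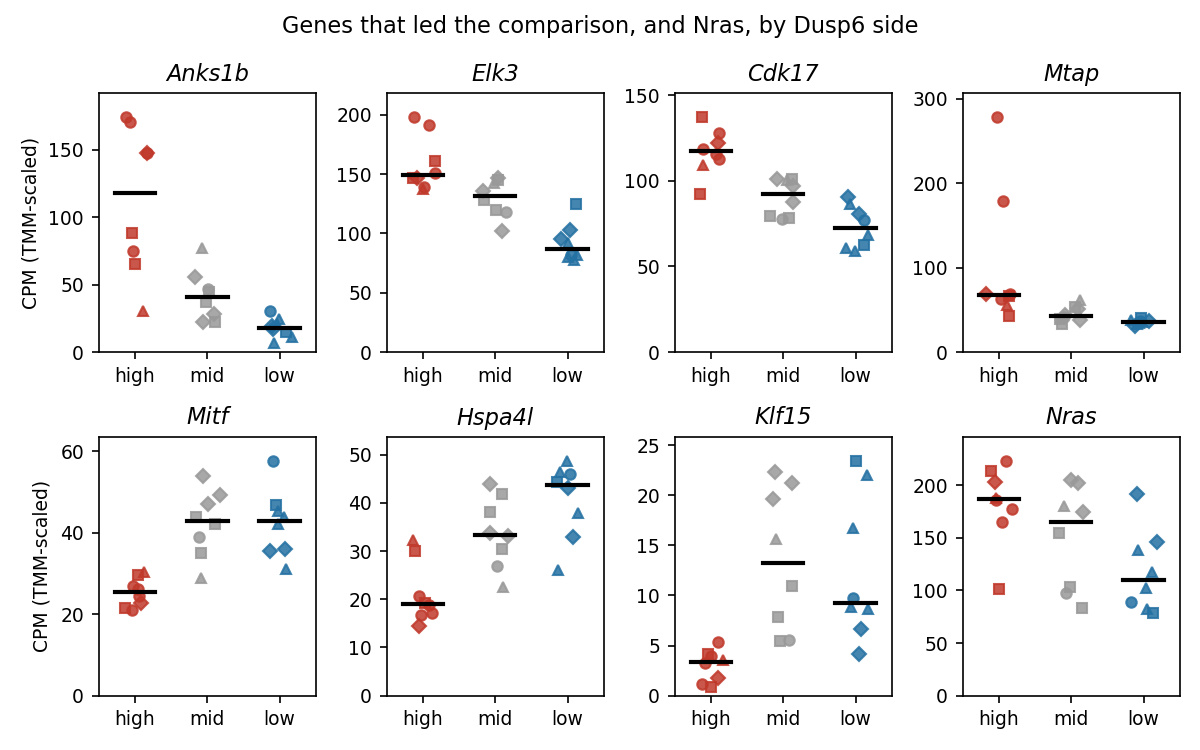
Level of 8 genes (vertical axes, CPM on TMM-scaled library sizes, from 0) in the 8 Dusp6-high, 8 middle (mid) and 8 Dusp6-low libraries, 1 point per tumour with the median as a bar and the genotypes as circles (TN61R/R), squares (TN61K/K), triangles (TN61L/L) and diamonds (TN61H/H). Anks1b, Elk3, Cdk17, Mtap and Mitf do not overlap between high and low, Mitf being lower in the Dusp6-high libraries, while Nras overlaps.

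Some secreted and matrix genes were also among the calls. Of 18 tested genes of an EMT and invasion list, 2 were called higher and 0 lower, against 0.78% and 0.26% of all tested genes, with a median log2 fold change of 0.57. These were Mmp14, a membrane-bound metalloprotease, with 343.5, 550.9 and 795.1 CPM in Dusp6-high melanomas against 237.6, 377.6 and 392.9 CPM in Dusp6-low melanomas (0.64 ± 0.14, edgeR adjusted p 0.0318), and Tgfbi, a matrix protein induced by TGF-beta, at 0.78 ± 0.16 (edgeR adjusted p 0.0210). Vim and Tnc, of the same list, were at 0.64 ± 0.19 and 1.11 ± 0.34 and missed the threshold (edgeR adjusted p 0.0769 and 0.0865). The call of Mmp14 held in 7 of the 16 fits that leave out a library and not with genotype as a covariate. Spp1, which encodes osteopontin and was picked after its values were seen, had 29.1, 56.5 and 307.8 CPM in Dusp6-high melanomas, against 3.42, 11.2 and 23.4 CPM in Dusp6-low melanomas. The sides did not overlap (2.96 ± 0.60, edgeR adjusted p 0.0213), and the highest value was that of TN61H/H replicate 4.

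Mitf, the master regulator of melanocyte differentiation, was the gene of smallest p among those that fell. It had 21.0, 25.3 and 30.4 CPM in Dusp6-high melanomas, against 31.2, 43.0 and 57.7 CPM in Dusp6-low melanomas. Every Dusp6-high tumour was below every Dusp6-low tumour, the log2 fold change was -0.74 ± 0.13 (edgeR adjusted p 0.00950), and the call held when any single library was left out. It did not hold with the keratinocyte or the adipocyte genes as a covariate. Nor did it hold without the 3 libraries at the ends of the Dusp6 range, or with 10 or 12 libraries a side. Over the alternatives other than single libraries left out, the log2 fold change of Mitf lay between -0.81 and -0.38. The 8 libraries between the sides had a median of 43.0 CPM, at the level of the Dusp6-low melanomas. Mitf was the only 1 of 11 lineage regulators to be called (0.26% of all tested genes were called lower), and Sox10 was at 0.52 ± 0.31 (edgeR adjusted p 0.371).

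Pigment genes, which Mitf is known to drive, were low throughout, and 4 of the 14 listed averaged under 1 CPM. Of 13 tested, edgeR called 0 (1.04% of all tested genes were called), and 12 had an unadjusted p under 0.05 (19.2% of all tested genes did). The median log2 fold change was -2.36. Their summed level had a median of 30.8 CPM (range 15.6 to 89.2) in Dusp6-high and 72.6 CPM (range 27.9 to 336.2) in Dusp6-low melanomas. Pmel, a fibril protein of melanosomes, was at -1.76 ± 0.56, Slc45a2 and Oca2, melanosome transporters, were at -2.36 ± 0.65 and -2.86 ± 0.92, and Slc24a5, an ion exchanger, was the only member with a positive value at 1.61 ± 0.52 (edgeR adjusted p 0.0629 to 0.104). The Slc24a5 value turned on TN61R/R replicate 2 at 76.5 CPM, without which it was 0.63. Hair follicles hold pigmented melanocytes of their own, and hair follicle genes were lower in the median of Dusp6-high melanomas too, as given below; their part in the pigment values was not tested.

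The other genes of smallest p that fell were Hspa4l, a chaperone of the HSP110 family, Tns1, which encodes tensin at focal adhesions, Klf15, a transcription factor of lipid and amino acid metabolism, B3galt2, a galactosyltransferase, Slc6a13, a GABA and taurine transporter, Ppip5k1, an inositol pyrophosphate kinase, Heph, a ferroxidase, Trpv1, a heat-gated channel, Fam13a, Foxo1, a factor restrained by AKT, and Chadl. Their log2 fold changes lay between -3.31 (Slc6a13) and -0.68 (Tns1), with edgeR adjusted p between 0.0132 and 0.0291. Foxo1 had 42.6, 51.7 and 70.2 CPM in Dusp6-high melanomas, against 65.6, 97.3 and 129.0 CPM in Dusp6-low melanomas. Hspa4l had 14.5, 19.01 and 32.2 CPM in Dusp6-high melanomas, against 26.0, 43.7 and 48.8 CPM in Dusp6-low melanomas. In each of these 11 genes the sides overlapped, and in 4 of them (B3galt2, Ppip5k1, Foxo1 and Chadl) 7 of 8 Dusp6-high tumours were below every Dusp6-low tumour.

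Markers of tissue around the tumour had lower medians in Dusp6-high melanomas, without any single gene passing the test. EdgeR called 0 of 14 hair follicle, 0 of 12 adipocyte, 0 of 14 skeletal muscle and 0 of 16 keratinocyte genes tested (6, 11, 8 and 0 at an unadjusted p under 0.05). All members of these lists had negative log2 fold changes, with medians of -3.27, -2.69, -1.86 and -1.55. Over all tested genes 1.04% were called, 19.2% had an unadjusted p under 0.05 in edgeR and 48.4% had a positive log2 fold change. Hair follicle genes summed to a median of 156.7 CPM (range 0.832 to 1223) in Dusp6-high and 2751 CPM (range 1.498 to 15990) in Dusp6-low melanomas. Adipocyte genes summed to a median of 248.5 CPM (range 78.7 to 1104) in Dusp6-high and 730.2 CPM (range 254.0 to 6543) in Dusp6-low melanomas. Skeletal muscle genes summed to a median of 1836 CPM (range 670.0 to 8786) in Dusp6-high and 5139 CPM (range 1117 to 31820) in Dusp6-low melanomas. Among defining genes, Lep, the adipocyte hormone, was at -3.46 ± 1.06 and Hoxc13, a hair follicle factor, at -3.37 ± 1.495 (edgeR adjusted p 0.0898 and 0.222). With the mean of the adipocyte genes as a covariate 3 genes were called, Ier3, Anks1b and Elk3. With the keratinocyte genes instead, these and Cdk17, Astn2, Sh3kbp1 and Pdlim4 were called. The part of skin, fat and muscle in the other calls was not tested.

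Immune cell lists showed no calls. EdgeR called 0 of 20 T and NK cell, 0 of 18 macrophage and 0 of 10 neutrophil genes tested (2, 1 and 4 at an unadjusted p under 0.05), with median log2 fold changes of 0.16, -0.24 and 1.40. Over all tested genes 1.04% were called and 19.2% had an unadjusted p under 0.05. Neutrophil genes were positive in 10 of 10 (48.4% of all tested genes were). They summed to a median of 55.0 CPM (range 16.7 to 173.6) in Dusp6-high and 20.0 CPM (range 13.7 to 51.2) in Dusp6-low melanomas. Il1b, listed with them, was at 2.66 ± 0.80 (edgeR adjusted p 0.0854). Ptprc, which marks all leukocytes, was at 0.16 ± 0.42 (edgeR adjusted p 0.885).

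Proliferation genes differed by less than their spread. All 28 had positive log2 fold changes (48.4% of all tested genes did), with a median of 0.36. EdgeR called 0 (1.04% of all tested genes were), with 0 at an unadjusted p under 0.05 (19.2% were). Their summed level was highest in TN61R/R replicates 6 and 4, at 2969 and 2838 CPM, with 501 to 1627 CPM in the other Dusp6-high tumours. Mki67, a marker of cycling cells, had 97.6, 381.2 and 821.4 CPM in Dusp6-high melanomas, against 214.1, 360.5 and 464.6 CPM in Dusp6-low melanomas (0.31 ± 0.34, edgeR adjusted p 0.660). Both the highest and the lowest Mki67 value among the 2 sides were in Dusp6-high tumours.

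Each of the remaining lists held 0 genes called by edgeR, beside 1.04% of all tested genes. Their median log2 fold changes were 0.07 for MYC targets, 0.35 for hypoxia and glycolysis, 0.00 for ATF4 and the unfolded protein response, -0.16 for immediate early and heat shock genes, -0.19 for interferon targets, -0.36 for MHC class I, 0.08 for dendritic cells with MHC class II, 0.07 for B and plasma cells, -0.75 for mast cells, 0.01 for fibroblasts, -0.09 for endothelium, 0.20 for neural crest, 0.09 for nerve tissue, -0.35 for the 2 erythroid genes tested and -0.14 for other dual-specificity phosphatases. The number with an unadjusted p under 0.05 in edgeR was between 0 and 9 a list, beside 19.2% of all tested genes. It was 9 of 17 for immediate early and heat shock genes, of which 7 were positive, and 5 of 10 for nerve tissue. For dendritic cells with MHC class II it was 0 of 14, for MHC class I 0 of 12 and for mast cells 0 of 9.

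**Figure D4:**
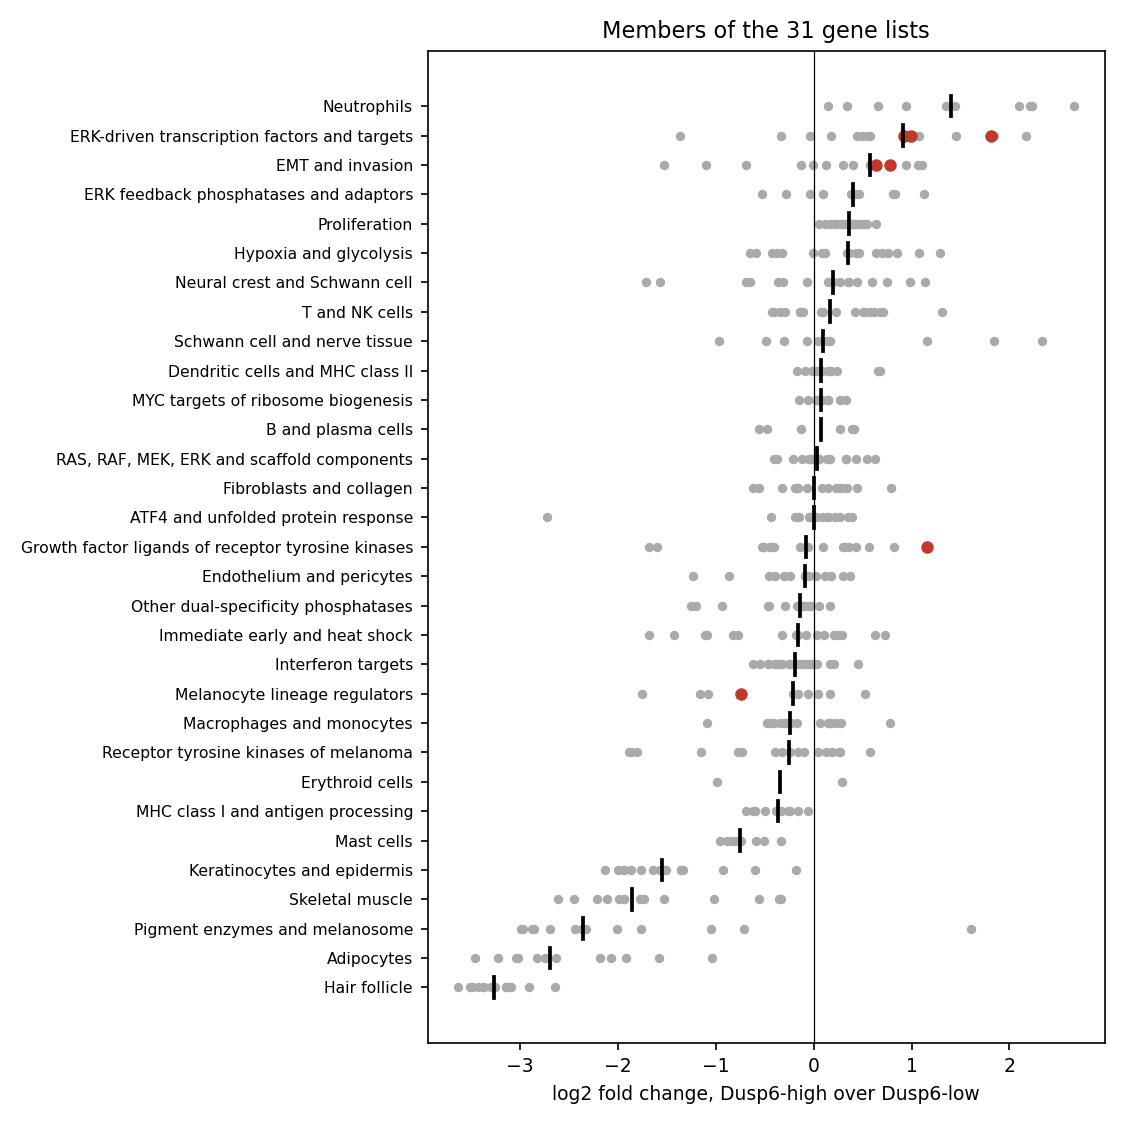
Log2 fold change of Dusp6-high over Dusp6-low melanomas (horizontal axis) for each tested member of the 31 gene lists (rows), with called genes in red, all others in grey and the list's median as a black bar. The ERK-driven list lies at a median of 0.91 with 3 red points, and the hair follicle, adipocyte, pigment, muscle and keratinocyte lists lie at medians between -3.27 and -1.55 with none.

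Dusp6 lies on chromosome 10 (99263231 to 99267489, mm10), and its chromosome held more of the genes called higher than any other. Of 819 tested genes there, 17 (2.08%) were called higher, against 0.78% over the genome, and 4 lower. They included Anks1b, Elk3, Cdk17, Nav3 and Phlda1, and, picked after their values were seen, Chst11, a chondroitin sulfotransferase, with 33.3, 132.8 and 288.9 CPM in Dusp6-high melanomas against 15.8, 27.3 and 63.9 CPM in Dusp6-low melanomas, Apaf1, the apoptosome scaffold, at 0.45 ± 0.09, and Cdk4, the kinase partner of cyclin D1, at 0.37 ± 0.09 (edgeR adjusted p 0.00950, 0.0211 and 0.0483). The call of Cdk4 held in 4 of the 16 fits that leave out a library, and neither Cdk4 nor Apaf1 was called with genotype as a covariate. The closest neighbours of Dusp6 were not called. Atp2b1 was at 0.20 ± 0.13, and Galnt4 and Poc1b, which overlap each other so that their reads may be shared, were at 0.33 ± 0.12 and 0.34 ± 0.15 (edgeR adjusted p 0.392, 0.155 and 0.228).

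The whole chromosome was shifted by little. Each library's shift was taken as the median, over the chromosome's genes other than Dusp6, of the deviation of log2 CPM from the mean of 24 libraries. For chromosome 10 it was 0.01 ± 0.05 in Dusp6-high and -0.02 ± 0.03 in Dusp6-low melanomas (mean ± SD, n = 8 each), a difference of 0.04 with an exact two-sided permutation p of 0.0275 and 0.183 after adjustment over 20 chromosomes. Over the 292 genes within 20 Mb of Dusp6 the means were 0.04 ± 0.06 in Dusp6-high and -0.04 ± 0.03 in Dusp6-low melanomas, and 6 of 8 Dusp6-high tumours were above every Dusp6-low tumour (exact permutation p 0.00280, not adjusted). The alternatives given below for the chromosome 10 difference were not run for these 292 genes. Over the other 527 genes the difference was 0.02 (exact permutation p 0.461). TN61K/K replicate 5 was the highest Dusp6-high tumour for the whole chromosome at 0.124, and without it the difference was 0.02 (exact permutation p 0.0580). Of the 8 libraries between the sides, TN61K/K replicates 4 and 1 had shifts near Dusp6 of 0.16 and 0.11, above every Dusp6-high tumour, with Dusp6 at 212.7 and 242.0 CPM of the column total. With the shift near Dusp6 as a covariate 721 genes were called, 162 of them among the 176.

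**Figure D5:**
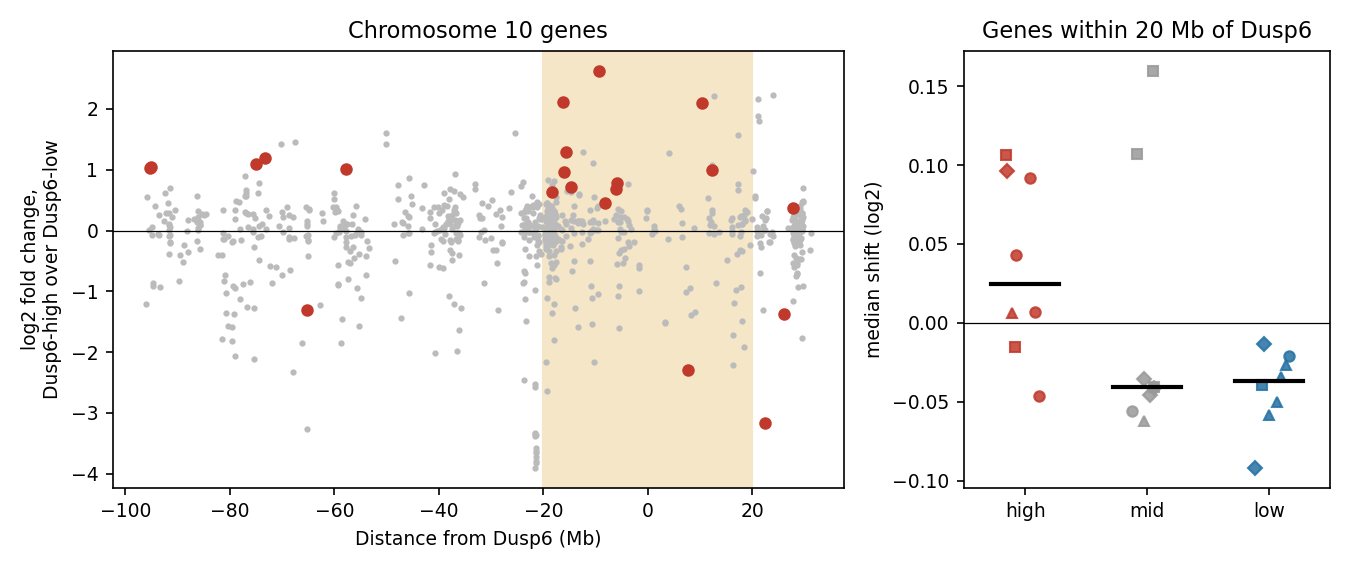
Left, log2 fold change of Dusp6-high over Dusp6-low melanomas (vertical axis) for each tested gene of chromosome 10 by its distance from Dusp6 in Mb (horizontal axis), called genes in red and the 20 Mb on either side shaded. Right, the median shift in log2 CPM of the 292 genes within 20 Mb of Dusp6, 1 point per library with the genotypes as circles (TN61R/R), squares (TN61K/K), triangles (TN61L/L) and diamonds (TN61H/H) and the median as a bar: 6 of 8 Dusp6-high points lie above all 8 Dusp6-low points.

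Of the 20 chromosomes compared, 1 passed the threshold after adjustment. Chromosome 18 was at 0.03 ± 0.03 in Dusp6-high and -0.03 ± 0.04 in Dusp6-low melanomas (mean ± SD, n = 8 each; exact permutation p 0.00109, adjusted 0.0218). Hbegf, Spry4 and Egr1 lie on it, and their log2 fold changes of 1.16, 0.81 and 0.49 stand beside a difference of 0.06 for the chromosome. Chromosomes 1 and 6, which hold 7 of the genes called lower each, did not pass. Chromosome 1 was at -0.07 ± 0.09 in Dusp6-high and 0.10 ± 0.11 in Dusp6-low melanomas (exact permutation p 0.00591, adjusted 0.0591), with 2 genes called higher and 7 lower. Chromosome 6, which carries Mitf, Klf15, Slc6a13 and Fam13a, was at -0.07 ± 0.13 in Dusp6-high and 0.03 ± 0.11 in Dusp6-low melanomas (exact permutation p 0.133, adjusted 0.530), with 1 gene called higher and 7 lower.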

How the data were processed

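The values used are raw, unnormalized gene counts that the authors deposited for 24 melanomas in 1 table. The study's methods name STAR for alignment, Picard 2.17.11 for marking duplicates, featureCounts for counting and the build mm10. Strand use in counting was not given in the sources consulted, and reads of overlapping or antisense genes may be shared. Ultraviolet exposure of each tumour's mouse is not in the labels.

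Genotypes came from the labels, and replicates were numbered in accession order. Libraries were ranked by Dusp6 CPM over the column total (31.9 to 43.8 M reads). Genes kept by filterByExpr were tested with edgeR 4.0.16 (R 4.3.3) by its robust quasi-likelihood F-test, TMM-scaled, in 1 fit of all 24 libraries. The contrast was Dusp6-high minus Dusp6-low, without covariates, and calls were made at 0.05 after Benjamini-Hochberg adjustment. The SE is the absolute log2 fold change over the square root of F, and log2 CPM has a prior count of 2. The labels do not tie each tumour to a separate mouse, and TN61H/H replicates 4 and 5 share an animal number, so the spread behind the p-values is that between tumours. No 2 libraries of a genotype agreed within sampling noise (chi-square per degree of freedom at least 68.3).

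Chromosome shifts were compared by exact permutation over 12870 splits (smallest p 0.000155). Of 24421 genes in the table, 2830 had no read and 27 had names turned into dates; these last were not named.

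The members and the 31 gene lists (485 genes) were chosen with earlier results of these data known. Named genes were the 12 of smallest p in each direction (mean of at least 1 CPM, named symbols), the 8 of highest Spearman correlation with Dusp6, 12 fixed genes (1 is not reported here; the others are Nras, Hras, Braf, Spry2, Spry4, Dusp4, Etv4, Etv5, Mitf, Mki67 and Ptprc), up to 4 per list and the ERK lists. Spp1, Chst11, Apaf1, Cdk4, Sox10 and the neighbours of Dusp6 were added after their values were seen.

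In counts simulated for Dusp6-high against Dusp6-low over 16791 genes, the test recovered 18%, 50%, 82% and 92% of 50 genes changed 1.5-, 2-, 4- and 8-fold, with 7 false calls of 128. Alternatives covered covariates, side width, ranking, scaling, filters, DESeq2 1.42.0, limma-voom (limma 3.58.1) and each library left out. The covariates for adipocyte genes, for the shift near Dusp6 and for the letter code of the tumour name, the count without chromosome 10 and the fits without 3 end libraries or TN61H/H replicate 5 were chosen after seeing the data. Promoters were matched by symbol in RefSeq for 3 of 6 genes looked up; Cdk17, Phlda1 and Ccnd1 were not matched.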

Additional observations from a re-analysis of the deposited data

Results flagged for a closer look

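In 18 of 240 sets of 8 values examined (a side's values of 1 gene, list sum or shift), the highest or lowest library stood apart by Dixon's criterion, a gap to the next library that is large for the side's range, which chance gives in about 5% of sets. TN61K/K replicate 5 stood apart in 4 of them among the Dusp6-high melanomas. Its chromosome 10 shift was 0.124 (the others -0.03 to 0.02), Nras was 101.1 CPM (the others 164.9 to 223.4), Spry2 was 96.0 CPM (the others 170.0 to 242.0), and the summed RAS, RAF, MEK, ERK and scaffold genes were 2289 CPM (the others 2637 to 2952). TN61H/H replicate 4 was highest of the Dusp6-high melanomas for immediate early and heat shock genes at 1619 CPM and for hypoxia and glycolysis genes at 4871 CPM. TN61L/L replicate 6 was lowest for Hmga2 at 25.6 CPM (the others 105.5 to 196.6).

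Among the Dusp6-low melanomas, TN61L/L replicate 5 had the highest Ppip5k1 at 66.4 CPM and the lowest summed MYC targets at 850.0 CPM. It also had the lowest Dusp6 at 113.8 CPM of the column total (the others 177.5 to 211.1). Dusp6 chose the side, so the chance rate given above does not hold for that flag. TN61K/K replicate 3 had the lowest Braf at 71.7 CPM, the lowest summed keratinocyte genes at 26.0 CPM (the others 2431 to 7326), and the highest summed macrophage genes at 9190 CPM (the others 1699 to 2646), interferon targets at 1308 CPM and growth factor ligands at 1496 CPM. TN61H/H replicate 6 was lowest for Hmga2 at 0.693 CPM, Mmp14 at 237.6 CPM and summed immediate early and heat shock genes at 807.3 CPM.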

How the results depend on the processing

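The 176 calls became 83 with only the 16 libraries of the sides, 604 with column name style as a covariate, 7 with the keratinocyte and 1492 with the leukocyte genes as a covariate, 86 in libraries with a separator in the column name, 1061 with 6 a side, and 2282 when libraries were ranked by TMM-scaled Dusp6, which kept 14 of the 16 members. Dusp6 as a continuous covariate gave 1396, DESeq2 998 and limma-voom 97. EdgeR gave 0 with 10 a side (2997 at an unadjusted p under 0.05, 570 by DESeq2) and 0 with 12 a side (1799, and 19 by DESeq2). Of those added after seeing the data, the shift near Dusp6 as a covariate gave 721, the adipocyte genes 3, the letter code of the tumour name 68, leaving out the 3 end libraries 4 and leaving out TN61H/H replicate 5, which shares an animal number with replicate 4, 162. Leaving out single libraries gave 30 (without TN61L/L replicate 5) to 908 (without TN61K/K replicate 5). The share of calls that were higher, 75% in the main test, was 45.8% with 6 a side, 48.4% by TMM-scaled rank, 42.4% with the continuous covariate, 85.3% with the letter code, 52.1% with the leukocyte covariate, 49% in DESeq2 and 46.9% with the shift covariate. The cause of these moves was not tested.

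All 38 called genes named above kept their direction under every alternative that gave them a value, and 18 stayed called whichever library was left out. Of the 38, edgeR kept 26 with genotype and 22 with the letter code as a covariate, 22 in libraries with a separator, 7 with the keratinocyte covariate and 0 with 10 or 12 a side.

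The chromosome 10 difference of 0.0399 no longer passed 0.05 with RLE scaling (0.0265, exact permutation p 0.428), in libraries with a separator (0.0392, 0.115), or with 6, 10 and 12 a side (0.0282, 0.0252 and 0.0275, with 0.0671, 0.428 and 0.335). Leaving out single libraries gave 0.0244 to 0.0460, with p above 0.05 without TN61K/K replicate 5, TN61L/L replicates 3 and 4 or TN61H/H replicate 6 (0.0535 to 0.0645).

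Signs turned only for uncalled genes: Mki67 was at -0.17 with the proliferation covariate, Ptprc at -0.15 with genotype, -0.0465 with the letter code and -0.0581 with the leukocyte covariate, Spred1 at -0.0019 with 6 a side, and Spry1 at 0.31 with genotype, 0.0729 with the letter code, 0.19 with the leukocyte and 0.11 with the shift covariate, and between -0.16 and 0.0555 with single libraries left out. Replicate numbers follow accession order and pair no tumours, so no paired analysis was run. The paper lists TN61R/R mice separately for each breeding cohort. The letter code of the tumour name may give that cohort, but the labels do not define it, and it was used only as the covariate above. With 8 libraries a side, the simulated test missed many changes of 2-fold or less, so a gene not called is not shown to be alike on the 2 sides.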
